A study of Rattus norvegicus with 6 samples.

Results

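Neural progenitor and immature neuron genes mark the steps by which a dividing cell of the dentate gyrus becomes a granule neuron. The set held 10 genes, chosen by symbol, of which 9 had a row among the 17455 genes of the count table and all 9 had enough counts to be tested among 11800 genes. Eomes, the T-box factor of intermediate progenitors, was not analysed here. The genes were proposed with their KO against WT differences already known, so the levels and fold changes of the 9 genes in this comparison are given as a description, without a test of any of them.

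RNA-Seq of the hippocampus was performed on 3 WT and 3 Fmr1 KO rats, 1 library per rat. All were males of 10 weeks on the Long Evans background. KO rats carried the LE-Fmr1em2Mcwi allele in every cell, and WT rats came from the same crosses. The methods assign a single litter per group to transcriptomics and do not say whether WT and KO rats shared it, so a part of litter in the differences was not tested. Each rat was a single hippocampal sample with all of its cells, and fewer cells of a type and less RNA per cell cannot be told apart in such tissue.

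In the adult hippocampus, stem cells of the dentate gyrus express the intermediate filament nestin (Nes) and the brain fatty acid-binding protein (Fabp7), as do radial glia of the embryo. Their progeny pass through dividing intermediate progenitors and then switch on Sox4 and Sox11, transcription factors of the SoxC group, and doublecortin (Dcx), which binds and stabilises microtubules. The growing neurite needs proteins that remodel microtubules (Stmn1, Dpysl3) and actin (Marcksl1, Tmsb10). Several of these genes are also used outside neurogenesis, Fabp7 by astrocytes, Nes by vessels, and Sox4, Sox11 and Marcksl1 by precursors of oligodendrocytes.

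Library totals over all genes ran from 9619812 to 13390476 counts. Fmr1, the targeted gene, had 47.6, 50.6 and 51.6 CPM (counts scaled to library size with TMM factors) in the WT libraries and 17.4, 13.1 and 11.6 CPM in the KO libraries. By the quasi-likelihood test of edgeR its log2 fold change (log2FC, KO over WT) was -1.83 (SE 0.12; adjusted p = 5.7e-06). On the first principal component of all genes tested, with 28.9% of the variance, WT replicate 3 scored 6.72, inside the range of the KO libraries (5.83 to 11.03), whereas WT replicates 1 and 2 scored -19.5 and -12.6.

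RefSeq (GRCr8) gave upstream sequence for 9 of the 10 genes, Sox4 having none in the table used. Shown are the 250 bases before an annotated start of Marcksl1, Nes, Fabp7 and Dcx, the genes whose fold changes were farthest from 0. Capitals mark matches, on either strand, to 8 motifs. Those of Sox factors were the core AACAAT, the longer form AACAAAG and the variant CATTGTG. The others were GTGGGAA of RBPJ in Notch signalling, the E-box CAGCTG of proneural factors, the CCAAT box, the GC box GGGCGG and the TATA box TATAAA. Motifs may overlap in a window.
Marcksl1, chr5:147135577-147135826, + strand: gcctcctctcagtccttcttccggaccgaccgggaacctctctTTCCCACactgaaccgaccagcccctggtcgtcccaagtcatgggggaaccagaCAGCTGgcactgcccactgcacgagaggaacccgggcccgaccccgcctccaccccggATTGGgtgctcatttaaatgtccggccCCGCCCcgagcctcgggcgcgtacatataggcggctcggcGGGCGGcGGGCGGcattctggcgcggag
Nes, chr2:175736338-175736587, + strand: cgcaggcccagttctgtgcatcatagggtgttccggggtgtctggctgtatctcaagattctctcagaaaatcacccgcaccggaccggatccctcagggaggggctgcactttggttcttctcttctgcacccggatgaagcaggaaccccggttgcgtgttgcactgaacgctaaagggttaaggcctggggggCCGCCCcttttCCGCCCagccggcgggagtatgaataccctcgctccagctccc
Fabp7, chr20:37669356-37669605, + strand: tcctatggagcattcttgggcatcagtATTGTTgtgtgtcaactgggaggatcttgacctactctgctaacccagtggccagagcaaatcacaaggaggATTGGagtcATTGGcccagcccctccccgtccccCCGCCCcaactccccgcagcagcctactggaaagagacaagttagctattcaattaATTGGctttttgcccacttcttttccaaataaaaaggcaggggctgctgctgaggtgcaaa
Dcx, chrX:112304162-112304411, - strand: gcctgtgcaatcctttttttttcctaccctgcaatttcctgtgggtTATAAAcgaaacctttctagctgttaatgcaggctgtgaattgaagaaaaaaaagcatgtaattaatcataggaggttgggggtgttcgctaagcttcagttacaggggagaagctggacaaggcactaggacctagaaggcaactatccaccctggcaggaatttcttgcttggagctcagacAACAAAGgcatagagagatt

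The upstream window of Marcksl1 was rich in CpG, with 24 CpG in 250 bases and 68.0% GC, against a median of 5 CpG and 51.2% GC over 33469 windows of all genes. That of Nes had 14 CpG, whereas those of Fabp7 and Dcx had 3 and 2. A GC box was found for Marcksl1, Nes, Fabp7, Sox11, Stmn1, Tmsb10 and both starts of Dpysl3, 8 of the 10 windows of these genes, and in 30.5% of all windows. The Sox core AACAAT was found only for Fabp7 (10.3% of all windows), AACAAAG only for Dcx (5.14%) and CATTGTG for none (3.77%). The RBPJ core was found only for Marcksl1 (5.27%), the TATA box only for Dcx (12.9%), and the E-box for Marcksl1, Sox11 and 1 start of Dpysl3 (11.97%). A CCAAT box stood before Marcksl1, Stmn1, Sox11, Eomes and Fabp7 (34.0%). Such matches describe the letters of these windows, not sites in use.

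The progenitor genes Nes and Fabp7 had lower mean levels in KO rats. Nes had 4.10, 6.01 and 4.28 CPM in WT replicates 1, 2 and 3 and 2.41, 3.17 and 2.92 CPM in KO replicates 1, 2 and 3. All 3 KO libraries lay below all 3 WT libraries. WT rats averaged 4.80 ± 1.05 CPM and KO rats 2.84 ± 0.390 CPM (SD, n = 3 each), giving a log2FC of -0.75 (SE 0.24) or a fold of 0.593. Leaving out 1 library moved the log2FC of Nes between -0.85 (KO replicate 2 left out) and -0.56 (WT replicate 2 left out). These levels rest on few reads, 26 to 77 per library, so that counting alone gives a CV of 19.6% at the lowest count, against a CV of 22.0% among the WT and 13.8% among the KO libraries.

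Fabp7 had 106.3, 104.1 and 69.5 CPM in WT replicates 1, 2 and 3 and 66.4, 71.3 and 74.1 CPM in KO replicates 1, 2 and 3. WT replicate 3 lay inside the KO range and the other WT libraries far above it, so the groups overlapped through 1 library. WT rats averaged 93.3 ± 20.6 CPM and KO rats 70.6 ± 3.90 CPM (SD, n = 3 each), giving a log2FC of -0.40 (SE 0.15). It was -0.58 without WT replicate 3 and -0.30 without WT replicate 1. With at least 710 counts in each library, counting error gives a CV of no more than 3.75%, while the WT libraries had a CV of 22.1%. Vim, another intermediate filament of radial glia and astrocytes, averaged 83.8 ± 5.19 CPM in the WT and 70.7 ± 9.89 CPM in the KO libraries (SD, n = 3 each). The groups overlapped, with 78.7 CPM in WT replicate 1 and 82.2 CPM in KO replicate 2. The log2FC of Vim was -0.24 (SE 0.09), with -0.37 without KO replicate 2 and -0.18 without KO replicate 3.

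**Figure D1:**
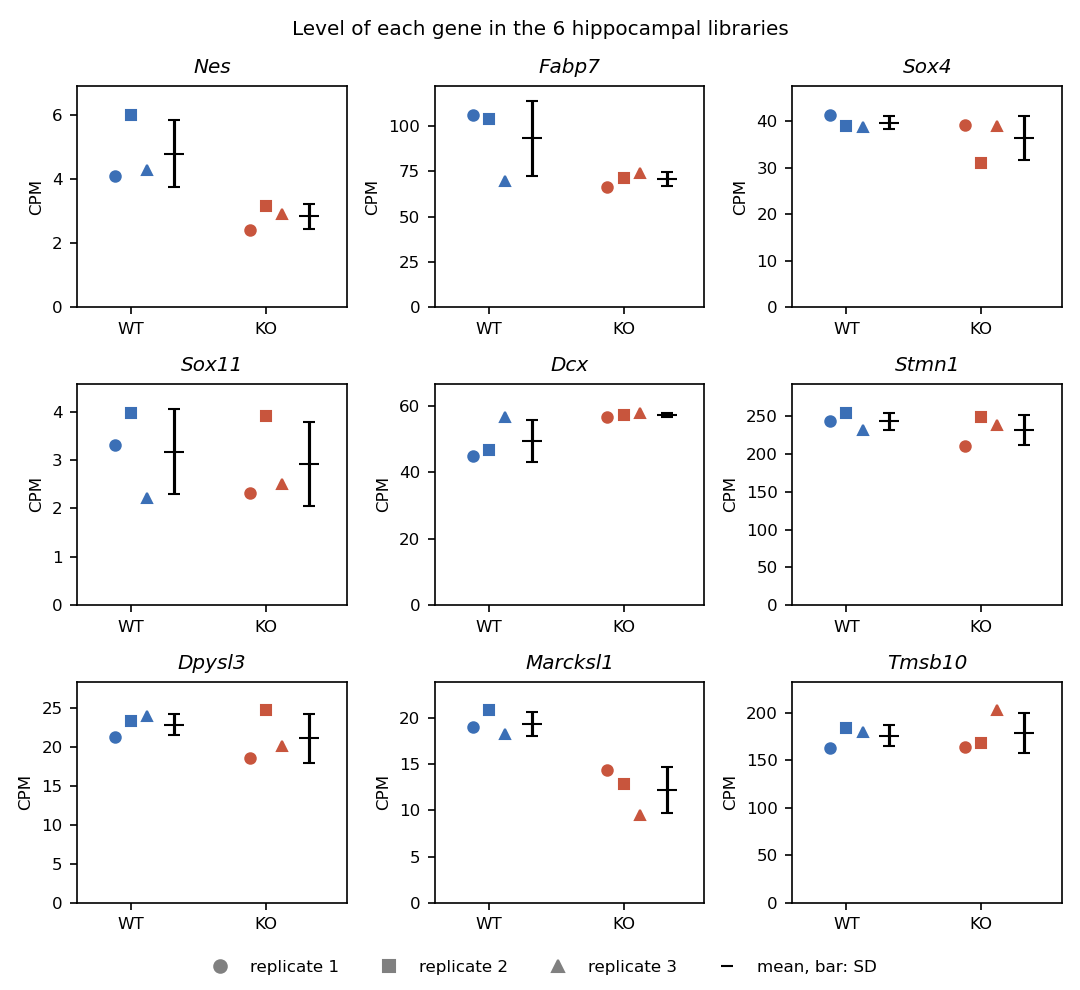
Level of each of the 9 genes, in CPM on the vertical axis, in the 3 WT and 3 KO libraries. Symbols give the replicate, and bars give the mean and SD of 3 libraries. Nes and Marcksl1 were below every WT library in each KO library, Dcx was above, and Fabp7 of WT replicate 3 lay among the KO values.

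The transcription factors Sox4 and Sox11 differed little between the groups. Sox4 had 41.4, 39.0 and 38.9 CPM in the WT libraries and 39.3, 31.0 and 39.0 CPM in KO replicates 1, 2 and 3. Only KO replicate 2 stood apart. The log2FC was -0.13 (SE 0.10), and -0.02 without that library. Sox11 had 3.31, 3.98 and 2.22 CPM in WT replicates 1, 2 and 3 and 2.32, 3.91 and 2.51 CPM in KO replicates 1, 2 and 3. The groups overlapped over nearly their whole range, with a log2FC of -0.10 (SE 0.29) that turned positive without WT replicate 2 (0.10) or KO replicate 1 (0.04) and was -0.30 without WT replicate 3 and -0.40 without KO replicate 2. Its 24 to 53 counts per library give a counting CV of 20.4% at the lowest, against a CV of 27.9% among the WT and 29.9% among the KO libraries. Sox12, the third SoxC gene, had a log2FC of -0.23 (SE 0.16).

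Among the genes of the neuronal microtubule, Dcx was the one with higher levels in KO rats. It had 44.7, 46.5 and 56.4 CPM in WT replicates 1, 2 and 3 and 56.5, 57.3 and 57.9 CPM in KO replicates 1, 2 and 3. All KO libraries lay above all WT libraries, but WT replicate 3 was only just below the lowest of them. WT rats averaged 49.2 ± 6.30 CPM and KO rats 57.2 ± 0.671 CPM (SD, n = 3 each), giving a log2FC of 0.22 (SE 0.09). This value was 0.33 without WT replicate 3 and 0.15 without WT replicate 1. The CV was 12.8% among the WT and 1.17% among the KO libraries, the latter under the 4.42% that counting gives at the lowest count. Dcx is X-linked, as is Fmr1, and was the only one of the 10 genes on that chromosome in GRCr8. Its relatives Dclk1, Dclk2 and Dclk3, doublecortin-like kinases, had log2FCs of 0.07 (SE 0.06), -0.09 (SE 0.07) and -0.19 (SE 0.14).

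Stmn1, which encodes the microtubule-destabilising protein stathmin, had 243.9, 255.1 and 231.6 CPM in WT and 210.5, 249.3 and 238.1 CPM in KO replicates 1, 2 and 3. The groups overlapped, and the log2FC was -0.07 (SE 0.07), moving between -0.12 (KO replicate 2 left out) and 7.9e-05 (KO replicate 1 left out). The neuronal stathmins Stmn2, Stmn3 and Stmn4 had log2FCs of -0.05, -0.15 and -0.11, of which that of Stmn3 was -0.07 without WT replicate 2 and that of Stmn4 was -0.06 without WT replicate 2 or KO replicate 1 and -0.17 without WT replicate 3. Dpysl3 encodes a collapsin response mediator protein that acts on microtubules and actin. It had 21.3, 23.3 and 23.9 CPM in WT and 18.6, 24.7 and 20.0 CPM in KO replicates 1, 2 and 3. KO replicate 2 was the highest of all libraries and KO replicate 1 the lowest, and the log2FC was -0.11 (SE 0.12), moving to -0.24 without KO replicate 2 and to -0.02 without KO replicate 1. The related Dpysl2, Dpysl4, Dpysl5 and Crmp1 had log2FCs from -0.09 (Dpysl5) to -0.01 (Crmp1).

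Of the actin regulators, Marcksl1 stood out. Its protein binds actin, calmodulin and membrane phosphoinositides and takes part in neurite growth. It had 19.0, 20.8 and 18.3 CPM in WT replicates 1, 2 and 3 and 14.4, 12.9 and 9.50 CPM in KO replicates 1, 2 and 3. All 3 KO libraries lay under the lowest WT library, and KO replicate 3 was the lowest of them, with 91 counts. WT rats averaged 19.4 ± 1.31 CPM and KO rats 12.3 ± 2.49 CPM (SD, n = 3 each), giving a log2FC of -0.65 (SE 0.14) or a fold of 0.636. Leaving out 1 library moved the log2FC of Marcksl1 between -0.77 (KO replicate 1 left out) and -0.51 (KO replicate 3 left out). Its close relative Marcks averaged 117.7 ± 13.6 CPM in WT and 108.7 ± 5.98 CPM in the KO libraries (SD, n = 3 each), giving a log2FC of -0.12 (SE 0.08).

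Tmsb10, a thymosin that sequesters actin monomers, had 163.3, 183.9 and 180.2 CPM in WT and 164.2, 168.1 and 202.5 CPM in KO replicates 1, 2 and 3. KO replicate 3 was the highest library and the other KO libraries fell inside the WT range. The log2FC was 0.02 (SE 0.08), with -0.08 without KO replicate 3, -0.03 without WT replicate 1 and 0.03 to 0.07 when one of the other libraries was left out. Tmsb4x, the other thymosin measured, had a log2FC of -0.13 (SE 0.06). Stmn1 and Tmsb10 averaged 243.5 and 175.8 CPM in WT rats. The cells that gave the reads of these 2 genes were not tested, so their levels do not count immature neurons.

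**Figure D2:**
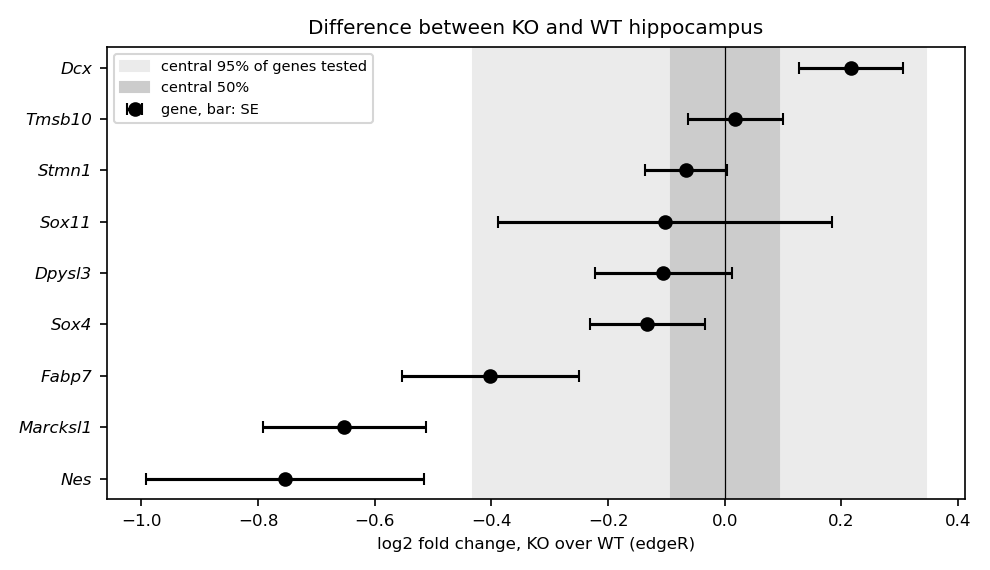
Log2 fold change of KO over WT for the 9 genes, with bars for the SE from edgeR. Grey bands span the central 50% (-0.09 to 0.09) and the central 95% (-0.43 to 0.34) of the 11800 genes tested. Nes and Marcksl1 lay outside the wider band, Fabp7, Dcx, Sox4, Dpysl3 and Sox11 lay between the edges of both bands, and Stmn1 and Tmsb10 lay inside the narrower one.

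Over the 9 genes, 7 had a log2FC below 0, where 49.5% of all genes tested had, and the median was -0.11 against 0.00 over all genes. At an adjusted p under 0.05 in edgeR, 0 of the 9 passed, and 3 of all genes (0.0254%) did. DESeq2 passed 1 of the 9 and 37 of the 14474 genes to which it gave a p-value (0.256%). In edgeR without WT replicate 3, 3 of the 9 and 256 of all genes (2.15%) passed. At an unadjusted p under 0.05 in edgeR, 4 passed (9.35% of all genes), 3 with lower (5.15%) and 1 with higher levels (4.19%) in KO rats, namely Nes, Fabp7 and Marcksl1, and Dcx. Without WT replicate 2, 1 of the 9 was lower, and the share of all genes that were lower was 3.17%. Dcx no longer passed in any fit that left out 1 library other than WT replicate 3, and in those fits 2.73% to 3.87% of all genes were higher. All KO libraries lay under the lowest WT library in 2 genes (7.52% of all genes) and over the highest WT library in 1 (7.19%). These shares are printed for scale, since the genes were picked with this comparison known.

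The 9 genes did not vary as 1 block among the 6 libraries. WT replicate 2 held the highest level of 4 of them (Nes, Sox11, Stmn1 and Marcksl1) and KO replicate 1 the lowest level of 4 (Nes, Fabp7, Stmn1 and Dpysl3). KO replicate 2, by contrast, had the highest level of Dpysl3 and the lowest of Sox4. Relative to the WT mean on the log2 CPM scale, the median over the 9 genes was -0.29, -0.06 and -0.18 in KO replicates 1, 2 and 3, and 8, 5 and 7 of them lay below the WT mean. In the WT libraries the median was -0.02, 0.07 and -0.07. WT replicate 3 was on the KO side of the WT mean for Fabp7 (-0.40), Dcx (0.20), Nes (-0.14) and Marcksl1 (-0.08). The KO libraries lay at -0.92 to -0.56 for Nes and at -1.01 to -0.42 for Marcksl1.

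Other genes of the same steps were read from 5 lists with 133 genes beside the 10, of which 113 were tested. In edgeR, 11 of the 113 (9.73%) had lower and 1 (0.885%) had higher levels in the KO at an unadjusted p under 0.05, against 5.15% and 4.19% of all genes tested. None passed an adjusted p of 0.05 over all genes in edgeR or in DESeq2. DESeq2 gave no adjusted p to some of them, among these Rgs16, Igfbpl1, Mcm3 and Mcm5, which were counted as not passing. The median log2FC was -0.04, and 75 of the 113 (66.4%, against 49.5% of all genes) lay below 0. The count of 12 (10.6%, against 9.35% of all genes) was 7 without WT replicate 2 (6.14%, against 5.90%) and 25 without WT replicate 3 (21.9%, against 17.6%). The fit without WT replicate 3 passed Basp1, Pfn1 and Fabp5 at adjusted p = 0.0218, 0.0271 and 0.0441 in edgeR, 2.63% of the genes of these lists against 2.15% of all genes. The lists were written with earlier results of these data known.

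Over all genes tested, 5.15% were lower and 4.19% higher in the KO at an unadjusted p under 0.05 in edgeR. Among 18 tested genes of intermediate progenitors and neuroblasts, 4 (22.2%) were lower and 0 higher at that threshold. Of these, the cell cycle inhibitor Cdkn1c (log2FC -0.76, SE 0.21), the signalling regulator Rgs16 (-0.71, SE 0.29) and Igfbpl1, a marker of neuroblasts (-0.80, SE 0.34), had adjusted p from 0.294 to 0.483 in edgeR. Cdkn1c had 8.28, 6.01 and 5.85 CPM in WT and 4.35, 3.69 and 3.86 CPM in KO replicates 1, 2 and 3, so all KO libraries were under the lowest WT library, whereas the groups overlapped for Igfbpl1. Rgs16 had 2.53, 4.37 and 3.21 CPM in WT and 2.04, 2.51 and 1.57 CPM in KO replicates 1, 2 and 3. Igfbpl1 had 2.27, 1.40 and 2.39 CPM in WT and 0.93, 1.11 and 1.46 CPM in KO replicates 1, 2 and 3. The values of Rgs16 and Igfbpl1 rest on few reads, as those of Nes do. The bHLH factors of later neurons did not pass, with log2FCs of 0.06 for Neurod1, -0.02 for Neurod2 and 0.05 for Neurod6, and Tbr1, a T-box relative of Eomes, had 0.01.

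Of 25 genes of neural stem cells and radial glia, 3 (12%) were lower and 1 (4%) was higher at the same threshold. The shares of all genes were 5.15% and 4.19%, and the list median was -0.03. Hes5, a Notch target, had 16.1, 17.8 and 14.6 CPM in WT and 13.5, 10.5 and 11.6 CPM in KO replicates 1, 2 and 3, a log2FC of -0.45 (SE 0.13; edgeR adjusted p = 0.331). Lower beside it were Vim and Lpar1 (-0.33, SE 0.09), a lysophosphatidic acid receptor of progenitors and of oligodendrocytes. The homeobox gene Emx2 was higher, with 32.6, 29.4 and 27.7 CPM in WT and 35.3, 34.8 and 35.6 CPM in KO replicates 1, 2 and 3 (log2FC 0.24, SE 0.09; edgeR adjusted p = 0.446).

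Among 24 tested genes of the cell cycle, 0 passed in either direction, against 9.35% of all genes, with a median log2FC of -0.09. The proliferation markers Mki67 and Top2a had 1.63 and 1.56 CPM in WT and 1.40 and 1.26 CPM in KO rats on average, with SEs of 0.35 and 0.37 on their log2FCs of -0.22 and -0.26. Mcm5, a helicase subunit of DNA replication, had the smallest p of the list (log2FC -0.67, SE 0.37; edgeR adjusted p = 0.570), a value that was -0.35 without KO replicate 2 and -1.03 without KO replicate 1.

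Of 31 genes of immature neurons, 4 (12.9%, against 5.15% of all genes) were lower and 0 (against 4.19%) higher, all by small amounts. They were the tubulin Tubb2a (-0.21, SE 0.07), the growth cone protein Basp1 (-0.23, SE 0.08), the actin-binding profilin Pfn1 (-0.20, SE 0.08) and the transcription factor Bcl11a (-0.18, SE 0.07), with adjusted p from 0.365 to 0.472 in edgeR. Tubb2a, Basp1, Pfn1 and Bcl11a averaged 403.5, 509.0, 146.1 and 75.8 CPM in WT rats. Which cells of the hippocampus gave these reads was not tested, so their levels do not count immature neurons. Tubb3 had a log2FC of -0.12, the polysialylated adhesion molecule Ncam1 of -0.05, calretinin (Calb2) of 0.08 and Prox1, the granule cell factor, of 0.06. Of 15 tested relatives of the 10 genes, 0 passed, against 9.35% of all genes. The log2FC was below 0 for 14 of them (93.3%, against 49.5% of all genes), with a median of -0.09. Fabp5, of the family of Fabp7, had 82.6, 76.1 and 57.3 CPM in WT and 64.2, 66.1 and 54.9 CPM in KO replicates 1, 2 and 3, and its WT replicate 3 was the lowest WT library, as for Fabp7.

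**Figure D3:**
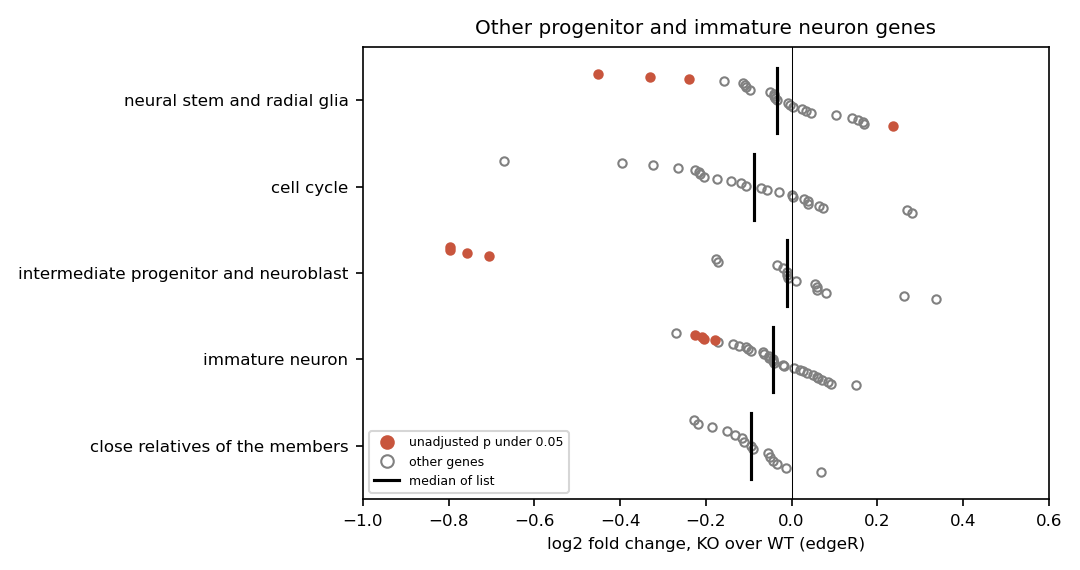
Log2 fold change of KO over WT (edgeR) for each tested gene of the 5 lists. Filled points mark the 12 genes at an unadjusted p under 0.05, and lines mark list medians, which lay between -0.09 and -0.01. The 4 filled genes of intermediate progenitors lay between -0.80 and -0.71, apart from the rest of their list.

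Markers of the cells that share these genes were set beside them. The summed level of 15 oligodendrocyte markers was 14202 to 14972 CPM in WT and 11190 to 12828 CPM in KO libraries, without overlap. A log2FC below 0 was found for 15 of 15, against 49.5% of all genes tested. For 12 markers of oligodendrocyte precursors the sums were 1462 to 1745 CPM in WT and 1429 to 1646 CPM in KO libraries, which overlapped. The largest parts of these sums came from Ptprz1 and Bcas1 (609.9 and 400.9 CPM in WT on average), with log2FCs of 0.09 and -0.19. Of 11 precursor markers tested, 8 (72.7%) were below 0. Within that list, C1ql1 (-0.60, SE 0.11), Nkx2-2 (-0.62, SE 0.23) and Olig1 (-0.35, SE 0.13) were lower at an unadjusted p under 0.05 in edgeR (adjusted p from 0.0958 to 0.474), while Pdgfra (-0.14) and Cspg4 (-0.03) were not. The part of these cells in the levels of Marcksl1, Nes, Fabp7 and Hes5 was not tested.

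The sums of 16 astrocyte markers, of interest for Fabp7, were 10810 to 11650 CPM in WT and 11456 to 13274 CPM in KO libraries. A log2FC below 0 was found for 3 of 16 (18.8%), against 49.5% of all genes. The sums of 13 endothelial and mural markers, of interest for Nes, were 421.2 to 458.0 CPM in WT and 453.6 to 486.3 CPM in KO libraries. Of these markers, 5 of 13 (38.5%) were below 0. Sums of the list written for neuroblasts of the subventricular zone (322.7 to 417.0 CPM in WT, 360.1 to 383.2 CPM in KO) overlapped. So did those of dentate granule cells (627.5 to 862.3 and 722.7 to 786.2 CPM) and of microglia (765.6 to 921.7 and 796.6 to 898.4 CPM). The largest parts of the subventricular sum came from Gad1 and Gad2 (212.3 and 52.0 CPM in WT on average), genes of GABA synthesis not particular to neuroblasts. Dlx2, Dlx5 and Sp9 averaged 1.85, 3.93 and 3.76 CPM in WT. In WT replicate 3 the dentate sum was the lowest of all 6 libraries (83.7% of the WT mean). The sum of the subventricular list was the highest there (113.2%), with Gad1 at 238.3 and Gad2 at 67.0 CPM. The part of this in the levels of other genes in WT replicate 3 was not tested. Markers of choroid plexus and ependyma summed to 44.6 to 50.4 CPM in WT and 36.5 to 42.2 CPM in KO libraries. Of 7 tested, 6 (85.7%, against 49.5% of all genes) were below 0. Ttr, of the choroid plexus, had 6.45, 7.41 and 9.88 CPM in WT and 1.76, 2.95 and 6.47 CPM in KO replicates 1, 2 and 3 (log2FC -1.12, SE 0.39). The ependymal genes Foxj1, Ccdc153, Rsph1 and Tmem212 had log2FCs of -0.07, 0.11, -0.08 and -0.02. In the marker lists summed here, no marker with a row in the table was at 0 in all 6 libraries.

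**Figure D4:**
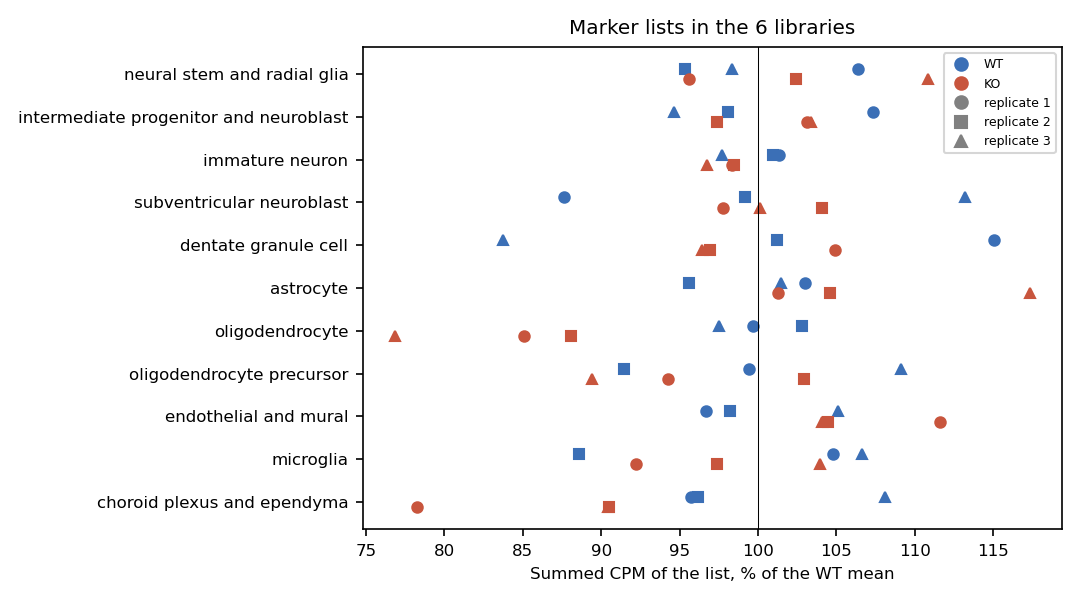
Summed CPM of each marker list as a percent of its WT mean, for 3 WT and 3 KO libraries, with symbols for the replicate. Sums of oligodendrocyte markers lay between 76.8% and 88.1% in KO libraries. Those of choroid plexus and ependyma, a list with Ttr at a log2FC of -1.12 and Foxj1 at -0.07, lay below every WT library. The other lists overlapped.

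The genes whose profile over the 6 libraries was most like that of Marcksl1 were found by the root mean square difference of log2 CPM, each gene centred on its own mean. They were Nkx2-2 (0.11), Tmem158 (0.11), Gfra4 (0.12), Cyp2j10 (0.13) and Epop (0.13), where the median over 11799 genes was 0.40. In Nkx2-2, as in Marcksl1, KO replicate 3 was the lowest library (2.30 CPM, against 4.88 to 5.52 CPM in WT). For Dcx they were Slc38a2 (0.02), Adamts6 (0.03), Kcnd3 (0.03), Iws1 (0.03) and Enah (0.03), with a median of 0.19. The measure includes the difference between genotypes, so these genes differ between KO and WT as their target does.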

How the data were processed

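Hippocampal RNA of 3 WT and 3 KO rats was sequenced as single-end reads. The labels name the NEBNext Ultra II kit and the methods its directional form. The authors aligned reads to rn6 with HISAT2 and deposited raw counts per gene symbol from htseq-count ("intersection non-empty"), without normalization. Versions, annotation and strand setting are not given in the sources used here, so reads of overlapping antisense genes may be shared. A second deposited table, with the authors' DESeq2 fold changes and p-values, was not used.

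The deposited counts were tested with edgeR 4.0.16 (R 4.3.3): filterByExpr (minimum count 10), TMM, a robust quasi-likelihood fit with genotype as the only term, two-sided, and Benjamini-Hochberg adjustment over the 11800 genes tested. SEs come from this fit, and profiles use log2 CPM with a prior count of 2. CPM depends on gene length, so levels are compared within a gene only. With 3 rats against 3, an exact permutation test cannot reach less than p = 0.1. The edgeR p-values set the genotype difference against the spread among these rats, which may not hold the spread between litters. All 6 columns matched a label, and 0 were left unassigned.

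The members and lists were chosen with earlier results of these data known. Named were all members, Fmr1, up to 4 genes per list with the smallest p, close relatives, defining markers and the 5 genes nearest to Marcksl1 and Dcx. Mki67, Top2a, Neurod1, Neurod2, Neurod6, Tbr1, Tubb3, Ncam1, Calb2 and Prox1 were named outside this rule after their values were seen, and 1 gene that the rule names is not reported here. The promoter motifs were not part of the planned design. Alternatives were RLE size factors, DESeq2 1.42.0, no filter, the replicate number as a block and leaving out each library.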

Additional observations from a re-analysis of the deposited data

How the results depend on the processing

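The count of 3 genes past an adjusted p of 0.05 was 37 in DESeq2, 9 with no filter on low counts and 1 to 256 when 1 library was left out, highest without WT replicate 3. The count of 12 other progenitor and immature neuron genes at an unadjusted p under 0.05 was 7 to 25 over the same fits, and the median log2 fold change of the 9 genes was -0.24 to -0.023, lowest without KO replicate 2 and nearest 0 without KO replicate 1. RLE size factors moved no count beyond 1.5 times. The labels do not say whether the replicate numbers pair the rats, and the main fit did not take them as pairs. Deviations of same-numbered libraries correlated at 0.03, -0.01 and -0.08, which with 3 libraries per group cannot decide it. In the edgeR fit with a replicate block, 17 of all genes passed an adjusted p of 0.05 (0.144%). At an unadjusted p under 0.05 in that fit, 16 of the 113 other progenitor and immature neuron genes passed (14.2%), against 9.4% of all genes. Marcksl1, Nes, Fabp7, Sox4 and Dpysl3 stayed below 0 and Dcx above 0 in all 10 alternatives, whereas Sox11, Stmn1 and Tmsb10 changed sign in 2, 1 and 2 of them. The cause of these shifts was not tested. At the lowest count, counting alone gives a CV of 19.6% for Nes and 20.4% for Sox11.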
